A study of Mus musculus with 24 samples.

Results

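The RNAs described here are 7 long noncoding RNAs of mouse renal cortex: Neat1, Malat1, Meg3, Kcnq1ot1, Gas5, Snhg1 and Snhg12. They were chosen by name, and each symbol matched 1 row of the count table, 7 of 48526 rows in all. Sequencing was done on total RNA depleted of ribosomal RNA, a method that does not select for a poly(A) tail. Mice of the C57BL/6 strain were made diabetic with 5 daily injections of 55 mg/kg streptozotocin, which is toxic to pancreatic beta cells, from 6 weeks of age. Non-diabetic mice received 0.5 M sodium citrate instead. The peptide PMX-53, an inhibitor of the complement receptor C5aR1, was given at 2 mg/kg in drinking water, and vehicle mice drank plain water, over 24 weeks. The 4 groups of 6 libraries were diabetic mice on PMX-53, diabetic mice on vehicle, non-diabetic mice on PMX-53 and non-diabetic mice on vehicle. No genetic change was labelled in any group.

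Long noncoding RNAs of this kind act or are made in the nucleus. Malat1 collects at nuclear speckles, where splicing factors are stored, and Neat1 is the RNA scaffold around which paraspeckles assemble. Kcnq1ot1 and Meg3 are imprinted: Kcnq1ot1 is transcribed from the paternal chromosome and silences genes around it, whereas Meg3 is transcribed from the maternal chromosome. Gas5, Snhg1 and Snhg12 are host genes, whose introns release small nucleolar RNAs (snoRNAs) and whose spliced transcripts are translated poorly and degraded by nonsense-mediated decay.

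Sequence windows of some of the members were read for features known of these RNAs. Neat1 (ENSMUSG00000092274, chromosome 19, 5824708 to 5845478, minus strand, GRCm38) and Malat1 (ENSMUSG00000092341, chromosome 19, 5795690 to 5802672, minus strand) lie 22035 bases apart on the same strand. Malat1 and the long form of Neat1 are known for an unusual 3′ end: RNase P cuts behind an A-rich tract, and the tract folds back on U-rich motifs into a triple helix that takes the place of a poly(A) tail. The last 110 bases of the annotated Neat1 transcript (chr19:5824708-5824817, GRCm38, minus strand) were set beside the 110 bases of the Malat1 transcript that end where its match to the last bases of Neat1 ends (chr19:5795982-5796091). Capitals mark runs of at least 10 bases that the windows share exactly, found with no motif given.
Neat1: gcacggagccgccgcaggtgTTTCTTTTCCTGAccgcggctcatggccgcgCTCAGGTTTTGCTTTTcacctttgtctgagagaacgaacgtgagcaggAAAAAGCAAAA
Malat1: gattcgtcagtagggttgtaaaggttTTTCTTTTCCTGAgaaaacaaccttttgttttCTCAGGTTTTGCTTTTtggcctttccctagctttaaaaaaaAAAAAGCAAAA
The 3 shared runs, of 13, 16 and 11 bases, came in the same order, and each occurred 1 time in either whole transcript. They start at bases 21, 52 and 100 of the Neat1 window and at bases 27, 59 and 100 of the Malat1 window. The whole transcripts share 221 runs of at least 10 bases, these included, of which 2 are longer than those shown and the longest has 29 bases. The capitals describe likeness of sequence, and no deposited value bears on the cut or the fold.

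The host genes start in another way. SnoRNA host genes are known for a 5′ terminal oligopyrimidine start, a run of C and T at the start of transcription that ribosomal protein genes also carry. The windows hold 60 bases before and 50 from the start in the RefSeq promoter table (GRCm38.p6, plus strand), at chr1:161035106-161035215 for Gas5, chr19:8723427-8723536 for Snhg1 and chr4:132308618-132308727 for Snhg12. Capitals mark the unbroken run of C or T that covers the start base, and where several starts are listed, that with the longest run is shown.
Gas5: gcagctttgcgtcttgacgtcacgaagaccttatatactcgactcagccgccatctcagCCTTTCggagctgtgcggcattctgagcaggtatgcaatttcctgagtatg
Snhg1: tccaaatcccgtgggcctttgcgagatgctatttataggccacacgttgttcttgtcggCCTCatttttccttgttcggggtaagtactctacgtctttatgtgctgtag
Snhg12: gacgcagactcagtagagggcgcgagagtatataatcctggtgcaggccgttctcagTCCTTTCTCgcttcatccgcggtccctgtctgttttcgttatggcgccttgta
The run was 6 bases long at this start of Gas5, 4 at Snhg1 and 9 at Snhg12. Each run begins before the listed start base, which is C at Gas5 and Snhg1 and T at Snhg12, so its length counts bases upstream of the start. Of all 32851 promoters in that table, 14.0% had a run of at least 4 bases, 7.25% of at least 6 and 3.03% of at least 9. A further listed start of Gas5 had no such run over its start base, and neither had those of Kcnq1ot1 and Meg3, while that of Malat1 had a run of 2. The runs describe these windows only.

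Each library held 10964992 to 22000895 counts. Levels are given as CPM (counts scaled to a fixed library total) after TMM scaling, a trimmed mean of M-values meant to reduce the effect of library composition. The tissue label was checked with markers of the proximal tubule, the main cell type of renal cortex, whose summed level was 12286 to 16588 CPM in diabetic PMX-53, 10983 to 13465 in diabetic vehicle, 15405 to 18976 in non-diabetic PMX-53 and 14663 to 17694 in non-diabetic vehicle libraries. Fat cell markers summed to at most 0.347 CPM in any library. Medulla and papilla markers summed to 268 ± 51.3 CPM in diabetic PMX-53 and 458 ± 113 CPM in diabetic vehicle libraries. Their sum was 343 ± 68.3 CPM in non-diabetic PMX-53 and 375 ± 76.5 CPM in non-diabetic vehicle libraries (mean ± SD, n = 6 each). Urothelium markers summed to at most 2.53 CPM in diabetic PMX-53, 6.52 in diabetic vehicle, 5.55 in non-diabetic PMX-53 and 0.871 in non-diabetic vehicle libraries. Mitochondrially encoded genes took 25.8% ± 2.56 of counts in diabetic PMX-53, 29.5% ± 2.14 in diabetic vehicle, 22.9% ± 1.51 in non-diabetic PMX-53 and 22.6% ± 1.65 in non-diabetic vehicle libraries (SD, n = 6 each). The diabetic vehicle libraries stood apart at single genes, such as Nnt, which lay at 242 to 272 CPM there, against 109 to 121 CPM in diabetic PMX-53, 101 to 110 CPM in non-diabetic PMX-53 and 101 to 112 CPM in non-diabetic vehicle libraries. Wdfy1 was likewise high there (66.6 to 79.6 CPM, against 26.1 to 33.2 CPM in the other 3 groups), whereas Ide (62.2 to 76.5 CPM, against 111 to 169 CPM) and Acad10 (11.6 to 16.4 CPM, against 57.1 to 82.9 CPM) were low. The labels name the strain and no substrain. A difference of substrain, or another trait of that group, cannot be told apart from diabetes or PMX-53 in the comparisons that use these libraries. The labels do not say that each library came from its own mouse, so the p-values cover the spread among samples, which may be technical.

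The members spanned more than 5 orders of magnitude in level per length. Compared as CPM per kb of annotated exonic sequence, the mean over 24 libraries was 2716 for Malat1, 74.0 for Neat1, 6.85 for Gas5, 2.51 for Snhg12, 1.98 for Snhg1, 1.70 for Kcnq1ot1 and 0.0150 for Meg3. Each of the 24 libraries had Malat1 above Neat1, Neat1 above Gas5, Gas5 above Snhg12 and Kcnq1ot1 above Meg3. The neighbours in the middle overlapped: Snhg12 exceeded Snhg1 in 21 libraries and Snhg1 exceeded Kcnq1ot1 in 18. Kcnq1ot1 is annotated as 1 exon of 93092 bases, which places it low on this scale although it had 1913 to 3210 counts per library. Malat1 took 1.64% to 2.35% of all counts in a library and ranked 3rd to 6th among all genes. Among genes annotated as long noncoding its rank by mean CPM was 2, that of Neat1 4 and that of Kcnq1ot1 7. Meg3, in contrast to the word abundant, had 103 counts over the 24 libraries.

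**Figure D1:**
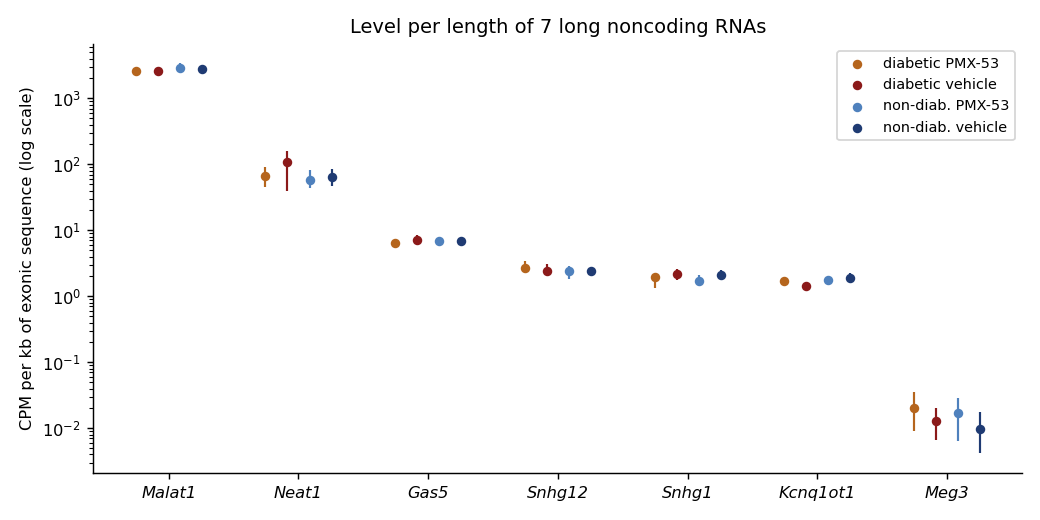
Level per length of the 7 RNAs in CPM per kb of exonic sequence, on a log axis, with points for group means and lines from the lowest to the highest of 6 libraries. Malat1 averaged 2716 and Meg3 0.0150 on this scale. The group means of Neat1 run from 57.7 to 108, and those of Meg3, which rest on 1 to 9 counts per library, from 0.00969 to 0.0204.

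Of the 6 members that could be tested, 4 were called in at least 1 comparison: Neat1, Kcnq1ot1, Gas5 and Snhg1. How many of all tested genes were called in at least 1 comparison was not counted, and diabetes on vehicle alone called 40.3%. Genes were called at an adjusted p below 0.05 by edgeR's quasi-likelihood test, fitted to all 15808 genes that passed a filter on low counts, which 6 of the 7 members passed (Meg3 did not). With diabetes on vehicle, 1 member was higher (Neat1) and 1 lower (Kcnq1ot1), while 40.3% of all tested genes were called, 20.4% higher and 19.9% lower. There, without scaling beyond library totals, 31.2% of the called genes were higher, against 50.7% with TMM. PMX-53 in diabetic mice left 3 members lower (Neat1, Gas5, Snhg1) and 0 higher, against 27.3% of all genes called, 13.9% higher and 13.5% lower. In that comparison, without scaling, 79.5% of the called genes were higher, against 50.7% with TMM, and the median of all genes moved to 0.12 (log2). Of the members, 1 was then higher (Kcnq1ot1) and 0 lower, with the calls of Neat1, Gas5 and Snhg1 lost. Diabetes on PMX-53 called 0 members, against 10% of genes, 5.52% higher and 4.52% lower (3 members had an unadjusted p below 0.05, and DESeq2 called 1 member). PMX-53 in non-diabetic mice called 0 members and 0% of genes by edgeR (1 member and 1142 genes had an unadjusted p below 0.05, and DESeq2 called 0 members and 5 genes). The interaction, in which the log2 fold change with PMX-53 in non-diabetic mice is subtracted from that in diabetic mice, called 0 members, against 9.42% of genes, 4.66% higher and 4.76% lower (2 members had an unadjusted p below 0.05, and DESeq2 called 1 member). The median log2 fold change over the 6 tested members was 0.10 with diabetes on vehicle and -0.19 with PMX-53 in diabetic mice, where that over all genes was 0.00 in both. These 2 comparisons share the diabetic vehicle libraries.

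**Figure D2:**
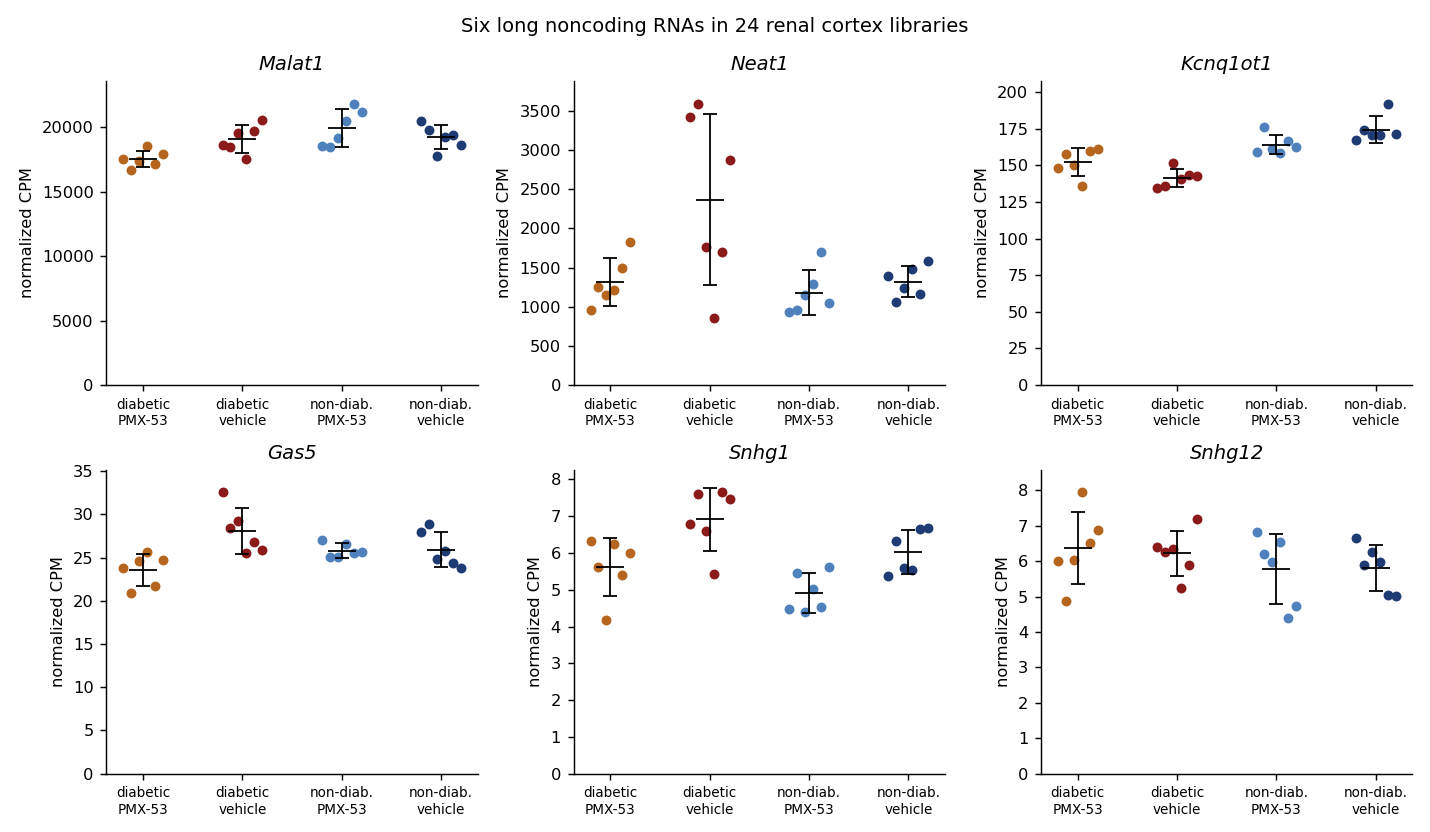
Normalized CPM of the 6 tested RNAs in each of 24 libraries, from 0, with points for libraries and a bar for mean ± SD of 6. Neat1 is spread from 857 to 3595 CPM in diabetic vehicle libraries, and Kcnq1ot1 lies below all non-diabetic vehicle libraries in all 6 of them.

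Malat1, the speckle RNA, passed in no comparison. Its level was 16702 to 18571 CPM (median 17438) in diabetic PMX-53 libraries, 17550 to 20578 (median 19082) in diabetic vehicle, 18458 to 21837 (median 19819) in non-diabetic PMX-53 and 17764 to 20480 (median 19334) in non-diabetic vehicle libraries. The ranges overlapped between all groups, and diabetic PMX-53 libraries were the lowest. Diabetes on vehicle gave it a log2 fold change of -0.01 ± 0.07 (edgeR adjusted p = 0.915), with a 95% interval from -0.14 to 0.12. On PMX-53 it was -0.19 ± 0.07 (edgeR adjusted p = 0.0793), and 6 of 6 diabetic libraries lay below the non-diabetic mean there. This value did not pass by edgeR, but it passed by DESeq2 (adjusted p = 0.0028) and by limma voom with quality weights (adjusted p = 0.0217). PMX-53 in diabetic mice gave -0.12 ± 0.07 (edgeR adjusted p = 0.183; DESeq2 adjusted p = 0.0365).

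Neat1, the paraspeckle scaffold, rose in diabetic vehicle mice and fell with PMX-53 in diabetic mice. It had 958, 1248, 1146, 1211, 1499 and 1830 CPM in the 6 diabetic PMX-53 libraries, against 3418, 3595, 1758, 857, 1698 and 2875 CPM in the 6 diabetic vehicle libraries. In non-diabetic mice it had 936 to 1694 CPM (median 1101) on PMX-53 and 1061 to 1589 CPM (median 1316) on vehicle. Thus 5 of 6 diabetic vehicle libraries lay above every non-diabetic vehicle library, while replicate 4 lay below all of them. The spread in that group, an SD of 1093 CPM at a mean of 2367 (a coefficient of variation of 46.2%), was wider than in the others (23.3% in diabetic PMX-53, 23.9% in non-diabetic PMX-53, 15.3% in non-diabetic vehicle). The log2 fold change with diabetes on vehicle was 0.84 ± 0.26, 1.79-fold (edgeR adjusted p = 0.0121), and 1.01 without replicate 4. The PMX-53 value in diabetic mice was -0.85 ± 0.26 (edgeR adjusted p = 0.0175). The call with PMX-53 was lost without diabetic vehicle replicate 1 (-0.71, adjusted p = 0.0522) or replicate 2 (-0.70, adjusted p = 0.0530), which held the most Neat1. It was also lost without scaling beyond library totals (adjusted p = 0.0504) and in a fit of only those 2 groups (adjusted p = 0.0709). Diabetes on PMX-53 gave 0.16 ± 0.25 (edgeR adjusted p = 0.762) and PMX-53 in non-diabetic mice -0.16 ± 0.25 (edgeR adjusted p = 0.945). The interaction was -0.69 ± 0.36 (edgeR adjusted p = 0.254), so a difference between diabetic and non-diabetic mice in the PMX-53 value was not shown; without diabetic vehicle replicate 4 it was -0.86 (adjusted p = 0.0462). The deposited counts are per gene and do not separate the short polyadenylated from the long form of Neat1.

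The ratio of Neat1 to Malat1 within a library does not depend on how libraries are scaled. Neat1 had 5.47% to 10.2% as many counts as Malat1 in diabetic PMX-53 libraries, 4.89% to 19.5% in diabetic vehicle, 4.97% to 7.76% in non-diabetic PMX-53 and 5.36% to 8.52% in non-diabetic vehicle libraries. The ratio was 1.63-fold higher with diabetes on vehicle, a log2 difference of 0.71 ± 0.33 (SE; exact two-sided permutation p = 0.0628, adjusted over 12 ratio tests p = 0.208). For PMX-53 in diabetic mice the difference was -0.60 ± 0.34 (exact permutation p = 0.106, adjusted p = 0.254). Diabetes on PMX-53 gave 0.34 ± 0.17 (exact permutation p = 0.0693, adjusted p = 0.208). None of the 12 ratio tests passed after adjustment, and the smallest p that 6 against 6 libraries can give is 0.00216.

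**Figure D3:**
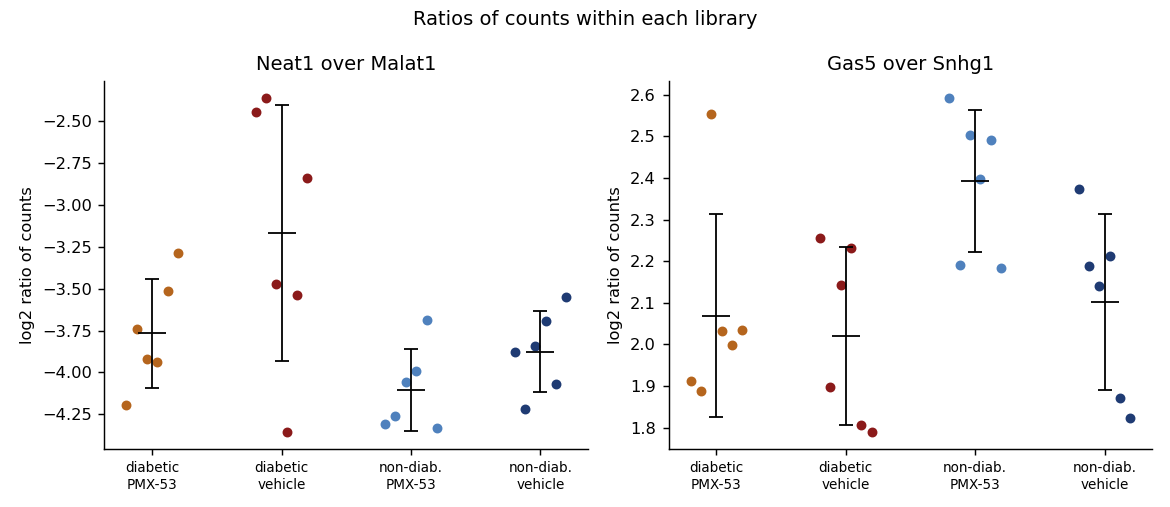
Log2 ratio of Neat1 to Malat1 counts and of Gas5 to Snhg1 counts in each library, with a bar for mean ± SD of 6. For Neat1 over Malat1 the diabetic vehicle libraries run from -4.36 to -2.36, beyond the range of every other group at both ends.

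Protein genes of paraspeckles and speckles, the bodies that Neat1 and Malat1 mark, are read against the 40.3% of all tested genes called with diabetes on vehicle and the 27.3% called with PMX-53 in diabetic mice. Of 20 paraspeckle protein genes, 3 rose and 4 fell with diabetes on vehicle, with Rbm4b at -0.46 ± 0.08 and Tardbp, which encodes the RNA-binding protein TDP-43, at -0.27 ± 0.05 (log2; edgeR adjusted p = 3.22e-05 and 1.48e-04). In diabetic mice on PMX-53, against those on vehicle, 2 fell and 0 rose: Pspc1, which encodes paraspeckle component 1, at -0.28 ± 0.07 and Taf15 at -0.21 ± 0.06 (edgeR adjusted p = 0.00534 and 0.00975). In diabetic mice on PMX-53, against non-diabetic mice on PMX-53, 2 rose and 4 fell, with Tardbp at -0.28 ± 0.05. The median log2 fold change of the list was -0.02 with diabetes on vehicle and -0.06 with PMX-53 in diabetic mice. Of 20 nuclear speckle protein genes, 2 rose and 6 fell with diabetes on vehicle (median 0.01), among them the splicing factor genes Srsf1 at -0.30 ± 0.05 and Srsf7 at -0.44 ± 0.08. Under PMX-53 in diabetic mice 2 rose and 5 fell (median -0.06), among them the kinase genes Clk1 at -0.26 ± 0.06 and Clk4 at -0.28 ± 0.06, which phosphorylate splicing factors.

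Kcnq1ot1 (ENSMUSG00000101609, chromosome 7, 143203458 to 143296549, minus strand) fell with diabetes on vehicle by a small amount. It had 135, 136, 152, 141, 143 and 143 CPM in the 6 diabetic vehicle libraries, against 167, 174, 171, 171, 192 and 171 CPM in the 6 non-diabetic vehicle libraries. The highest diabetic library lay below the lowest non-diabetic one. How many of all tested genes also had no overlap was not counted, and 40.3% of them were called. The level was 0.81-fold, a log2 fold change of -0.30 ± 0.05 (edgeR adjusted p = 1.58e-05), and it stayed called under every alternative run. Diabetic PMX-53 libraries lay between, at 136 to 161 CPM (mean 152 ± 9.63), with non-diabetic PMX-53 libraries at 159 to 176 CPM (mean 164 ± 6.55; SD, n = 6 each). PMX-53 in diabetic mice gave 0.11 ± 0.05, which did not pass, but without scaling beyond library totals it was 0.23 (adjusted p = 0.0218), where the median of all genes was 0.12, and without diabetic PMX-53 replicate 4 it was 0.14 (adjusted p = 0.0324). Diabetes on PMX-53 gave -0.11 ± 0.05 (edgeR adjusted p = 0.162). The interaction was 0.19 ± 0.07 (edgeR adjusted p = 0.0689), and it passed without diabetic PMX-53 replicate 4 (0.23, adjusted p = 0.0319).

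Kcnq1ot1 lies wholly inside the span of Kcnq1, a potassium channel gene of the plus strand, with 121 bases of it exonic in Kcnq1. The strand setting of the counting is not given in the sources used here. If strand was not used, intronic reads of Kcnq1 precursor RNA cannot be told apart from Kcnq1ot1. Small genes annotated wholly inside Kcnq1ot1 on the opposite strand had 64 to 110 counts each over all libraries. Gm37376, which lies likewise inside Malat1, had 63. Those inside Neat1 and Malat1 on the same strand had 0. The share of precursor reads in the level of Kcnq1ot1 was not tested. Kcnq1 was set beside Kcnq1ot1 for that overlap, after its values were seen. Kcnq1 moved the other way: 27.7 ± 3.78 CPM in diabetic vehicle libraries and 19.8 ± 2.83 CPM in non-diabetic vehicle libraries (SD, n = 6 each, log2 fold change 0.49 ± 0.09, edgeR adjusted p = 9.67e-05). Of 10 tested genes of the Kcnq1 imprinted domain, Kcnq1ot1 and Kcnq1 included, diabetes on vehicle raised 3 and lowered 2, where 40.3% of all genes were called. Osbpl5, which encodes a lipid transfer protein, was at 0.60 ± 0.07 and Slc22a18, a transporter gene, at -0.74 ± 0.10 (log2; edgeR adjusted p = 2.66e-07 and 2.97e-06). On PMX-53 Osbpl5 was at 0.27 ± 0.07 with diabetes (edgeR adjusted p = 0.0151), and 3 of the 10 rose and 0 fell. In diabetic mice PMX-53 gave Slc22a18 at 0.52 ± 0.10 and Osbpl5 at -0.35 ± 0.07. No deposited value separates the parental alleles, so imprinting itself was not measured.

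Gas5 (ENSMUSG00000053332, chromosome 1, 161034422 to 161038539, plus strand), a snoRNA host, was lower with PMX-53 in diabetic mice. It had 23.9, 20.9, 24.6, 25.6, 21.7 and 24.7 CPM in the 6 diabetic PMX-53 libraries, against 32.6, 28.4, 29.3, 25.6, 26.8 and 25.8 CPM in the 6 diabetic vehicle libraries. In 5 of 6 PMX-53 libraries the level lay below every vehicle library, and replicate 4 overlapped with the lowest vehicle library. On the opposite strand, Zbtb37 overlaps 428 bases of the span of Gas5, with 0 bases exonic in both genes. Reads of Zbtb37 there cannot be told apart from Gas5 if strand was not used. The log2 fold change was -0.25 ± 0.06, 0.84-fold (edgeR adjusted p = 0.00435). The call held with each library left out in turn, but without scaling beyond library totals it was -0.13 (adjusted p = 0.147), where the median of all genes was 0.12. With diabetes on vehicle it was 0.11 ± 0.06 (edgeR adjusted p = 0.165), and on PMX-53 -0.13 ± 0.06 (edgeR adjusted p = 0.205). The non-diabetic groups had close levels, 25.8 ± 0.821 CPM on PMX-53 and 25.9 ± 2.07 CPM on vehicle (log2 fold change -0.01 ± 0.06, edgeR adjusted p = 0.997). The interaction was -0.24 ± 0.09 (edgeR adjusted p = 0.0888), and it passed without diabetic vehicle replicate 4 (-0.27, adjusted p = 0.0481) or non-diabetic vehicle replicate 2 (-0.29, adjusted p = 0.0484).

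Snhg1 (ENSMUSG00000108414, chromosome 19, 8723475 to 8726443, plus strand) was also lower with PMX-53 in diabetic mice, on 68 to 168 counts per library. It had 6.32, 5.61, 4.17, 6.24, 5.40 and 5.99 CPM in the 6 diabetic PMX-53 libraries, against 6.78, 7.59, 6.60, 5.42, 7.65 and 7.46 CPM in the 6 diabetic vehicle libraries. All 6 PMX-53 libraries lay below the vehicle mean, and 2 of them below every vehicle library. The log2 fold change was -0.31 ± 0.11 (edgeR adjusted p = 0.0308). The call was lost without scaling, without the filter on low counts, in a fit of only those 2 groups, and without diabetic PMX-53 replicate 3 or 5 or diabetic vehicle replicate 2, 5 or 6 (adjusted p from 0.0559 to 0.293). In non-diabetic mice PMX-53 gave a like value, -0.29 ± 0.11, with 4.40 to 5.61 CPM on PMX-53 and 5.38 to 6.68 CPM on vehicle (unadjusted p = 0.0118, edgeR adjusted p = 0.550). The interaction was -0.01 ± 0.15 (edgeR adjusted p = 0.970), with a 95% interval from -0.31 to 0.28. With diabetes on vehicle Snhg1 was at 0.21 ± 0.10 (edgeR adjusted p = 0.118) and passed without diabetic vehicle replicate 4 (0.26, adjusted p = 0.0374), the lowest library of that group, and on all libraries by limma voom with quality weights (0.27, adjusted p = 0.0399).

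Snhg12 (ENSMUSG00000086290, chromosome 4, 132308623 to 132311024, plus strand) passed in no comparison, on 59 to 162 counts per library. It had 4.87 to 7.94 CPM (median 6.27) in diabetic PMX-53 libraries, 5.23 to 7.19 (median 6.30) in diabetic vehicle, 4.39 to 6.82 (median 6.08) in non-diabetic PMX-53 and 5.01 to 6.65 (median 5.94) in non-diabetic vehicle libraries. The 4 ranges overlapped throughout. Diabetes on vehicle gave a log2 fold change of 0.10 (95% interval from -0.13 to 0.33) and PMX-53 in diabetic mice 0.04 (95% interval from -0.19 to 0.26).

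**Figure D4:**
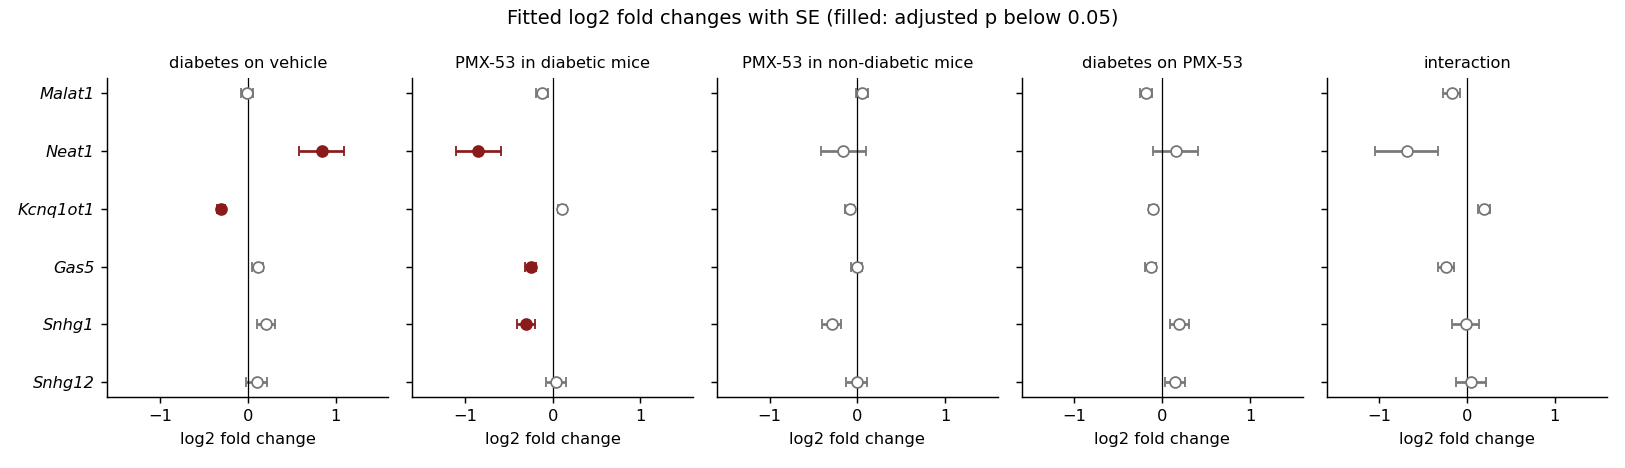
Fitted log2 fold change of the 6 tested RNAs in each comparison, with bars for SE and filled points for an adjusted p below 0.05. The filled points are Neat1 at 0.84 and Kcnq1ot1 at -0.30 with diabetes on vehicle, and Neat1 at -0.85, Gas5 at -0.25 and Snhg1 at -0.31 with PMX-53 in diabetic mice.

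The 2 hosts with a call were compared within libraries as well. The log2 ratio of Gas5 to Snhg1 averaged 2.07 ± 0.24 in diabetic PMX-53, 2.02 ± 0.21 in diabetic vehicle, 2.39 ± 0.17 in non-diabetic PMX-53 and 2.10 ± 0.21 in non-diabetic vehicle libraries (SD, n = 6 each). For PMX-53 in diabetic mice it differed by 0.05 ± 0.13 (exact permutation p = 0.749), so the fall of Gas5 and that of Snhg1 could not be told apart in size. The ratio was higher with PMX-53 in non-diabetic mice (0.29 ± 0.11, exact permutation p = 0.0260) and lower with diabetes on PMX-53 (-0.32 ± 0.12, exact permutation p = 0.0281), and neither passed after adjustment (adjusted p = 0.169 for each).

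The rows of the hosts' snoRNAs had almost no counts. The table has 10 snoRNA rows inside Gas5, 8 inside Snhg1 and 5 inside Snhg12, and 22 of these 23 had 0 counts in all 24 libraries (2 counts in total), as had 1141 of all 1507 snoRNA rows. All 23 lie wholly in annotated exonic sequence of their host, on the same strand. How the counting treats reads that fit both genes is not given, so these rows do not measure the level of the snoRNAs. Small genes annotated inside Neat1 and Malat1 on the same strand had 0 counts as well. The level of a host therefore says nothing here about its snoRNAs. Of the 15 tested snoRNA host genes, 5 rose and 2 fell with diabetes on vehicle, 1 rose and 3 fell with PMX-53 in diabetic mice, and 1 rose and 1 fell with diabetes on PMX-53. These counts lie near the shares of all tested genes called, 40.3%, 27.3% and 10%. Their median log2 fold change was 0.11, -0.20 and 0.11 in these comparisons. Under diabetes on vehicle Snhg15 was at 1.40 ± 0.14 and Snhg11 at -0.75 ± 0.10 (log2; edgeR adjusted p = 1.39e-08 and 1.97e-06). Diabetes on PMX-53 compares groups that share no library with the vehicle groups, and there Snhg15 was at 0.81 ± 0.13 and Snhg11 at -0.39 ± 0.10 (edgeR adjusted p = 2.09e-04 and 0.0130). Gas5 and Snhg5 had the smallest p under PMX-53 in diabetic mice, and Snhg5 was at -0.57 ± 0.15 (edgeR adjusted p = 0.00686).

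Gene groups tied to host transcripts were read beside them, and beside the same 40.3%, 27.3% and 10% of all tested genes. Of 34 cytosolic ribosomal protein genes, which share the oligopyrimidine start, diabetes on vehicle raised 32 and lowered 0, while 0 rose and 29 fell with PMX-53 in diabetic mice, whereas 1 rose and 0 fell with diabetes on PMX-53. Of 16 translation factor and related genes with such a start, diabetes on vehicle raised 4 and lowered 2, while 1 rose and 6 fell with PMX-53 in diabetic mice. Hnrnpa1, which encodes a splicing regulator, was at 0.40 ± 0.05 and -0.41 ± 0.05 in these 2 comparisons (log2; edgeR adjusted p = 1.73e-06 and 5.02e-06). Of 17 nonsense-mediated decay genes, 2 rose and 2 fell with diabetes on vehicle, with Upf1, the helicase of that pathway, at -0.34 ± 0.05 and Upf3b at 0.37 ± 0.08 (edgeR adjusted p = 1.40e-05 and 3.53e-04). PMX-53 in diabetic mice had Upf1 at 0.26 ± 0.05 and Upf3b at -0.31 ± 0.08. All values with PMX-53 in diabetic mice rest on the same diabetic vehicle libraries.

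Meg3 (ENSMUSG00000021268, chromosome 12, 109541001 to 109571726, plus strand), which is abundant in pituitary and brain, was close to the limit of these libraries. It had 3 to 9 counts per library in diabetic PMX-53 mice, 2 to 7 in diabetic vehicle, 2 to 9 in non-diabetic PMX-53 and 1 to 4 in non-diabetic vehicle mice, or 31, 27, 30 and 15 counts per group in that order. All 4 ranges overlapped. It was left out of the main test by the filter on low counts. With no filter, its largest log2 fold change in the pairwise comparisons was 0.80 ± 0.45 with PMX-53 in non-diabetic mice (unadjusted p = 0.083, edgeR adjusted p = 0.795 over 30655 genes), so no difference was detectable at this depth. Its neighbour Rian, another maternal RNA of the Dlk1-Dio3 imprinted domain, was as scarce, with 2 to 5 counts in diabetic PMX-53, 1 to 7 in diabetic vehicle, 0 to 4 in non-diabetic PMX-53 and 0 to 5 in non-diabetic vehicle libraries. Of 9 listed genes of the domain 8 were in the table, and 1 passed the filter (Wdr25, -0.01 ± 0.12 with diabetes on vehicle).

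The members were also set among other long noncoding RNAs. Of 18 tested RNAs in a list of nuclear and other long noncoding RNAs, which holds Neat1, Malat1 and Kcnq1ot1, 4 rose and 7 fell with diabetes on vehicle, 5 rose and 3 fell with PMX-53 in diabetic mice, and 3 rose and 0 fell with diabetes on PMX-53, beside 40.3%, 27.3% and 10% of all tested genes. Trp53cor1, a p53-induced RNA also called lincRNA-p21, was at 3.24 ± 0.28 with diabetes on vehicle and 3.27 ± 0.27 with diabetes on PMX-53 (log2; edgeR adjusted p = 2.48e-09 and 4.54e-09). It had 1.55 to 2.46 CPM in diabetic PMX-53 libraries and 1.21 to 2.35 CPM in diabetic vehicle libraries, against 0.117 to 0.452 CPM in non-diabetic PMX-53 and 0.0607 to 0.363 CPM in non-diabetic vehicle libraries. Neither diabetic group overlapped with a non-diabetic one, and how many of all tested genes share this was not counted. Dleu2 was, on vehicle, at -0.64 ± 0.08 with diabetes (edgeR adjusted p = 5.65e-07), and Airn, an imprinted antisense RNA, at 0.57 ± 0.12 with diabetes on PMX-53 (edgeR adjusted p = 0.00334). Mir22hg, the host of miR-22, was under PMX-53 in diabetic mice at -0.43 ± 0.12 (edgeR adjusted p = 0.00737).

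**Figure D5:**
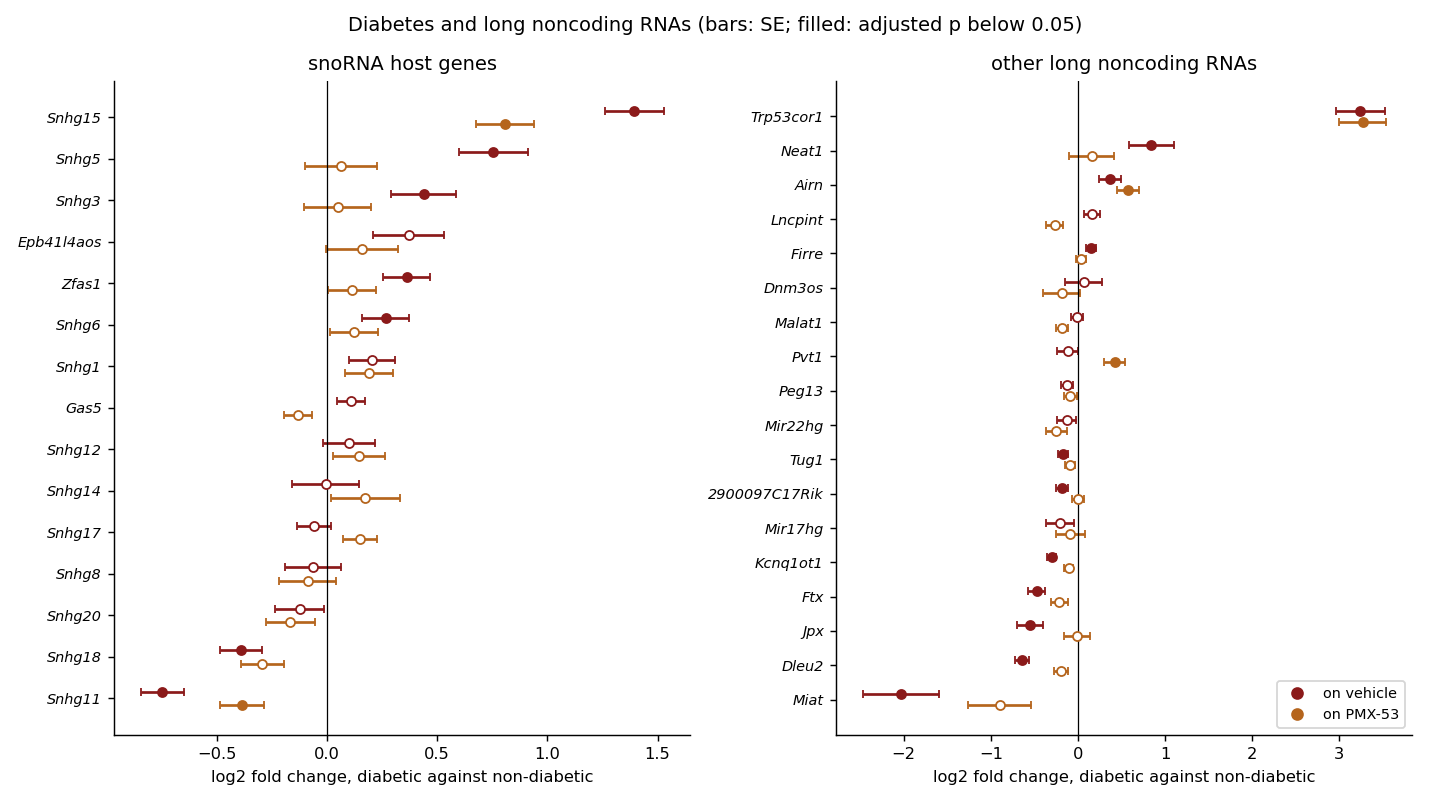
Log2 fold change of diabetic against non-diabetic mice, on vehicle and on PMX-53, for 15 snoRNA host genes and 18 other long noncoding RNAs, with bars for SE and filled points for an adjusted p below 0.05. Trp53cor1 is at 3.24 on vehicle and 3.27 on PMX-53, whereas Neat1 is filled on vehicle (0.84) and open on PMX-53 (0.16).

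Markers of cell types moved between the same groups. Of all tested genes, 40.3% were called with diabetes on vehicle and 27.3% with PMX-53 in diabetic mice. With diabetes on vehicle 2 of 10 proximal tubule markers rose and 5 fell, and 6 of 6 markers of collecting duct principal cells rose, at summed levels of 247 to 402 CPM in diabetic vehicle and 138 to 190 CPM in non-diabetic vehicle libraries. Under PMX-53 in diabetic mice 6 of 7 podocyte markers rose, at 270 to 400 CPM in diabetic PMX-53 and 209 to 243 CPM in diabetic vehicle libraries. Of the B and plasma cell markers 4 of 7 could be tested, of which 3 fell and 0 rose with diabetes on vehicle (median log2 fold change -1.98), and 4 rose and 0 fell with PMX-53 in diabetic mice (median 1.11). Their summed level was 40.3 to 128 CPM in diabetic PMX-53, 19.2 to 66.8 in diabetic vehicle, 90.7 to 153 in non-diabetic PMX-53 and 113 to 258 in non-diabetic vehicle libraries. Under PMX-53 in diabetic mice 7 of 8 stromal cell markers rose, at 179 to 303 CPM in diabetic PMX-53 and 123 to 177 CPM in diabetic vehicle libraries. Liver markers, of which 5 of 6 could be tested, summed to 696 to 1156 CPM in diabetic PMX-53, 945 to 1579 in diabetic vehicle, 601 to 771 in non-diabetic PMX-53 and 713 to 856 in non-diabetic vehicle libraries, and 2 rose and 0 fell with diabetes on vehicle, while 0 rose and 3 fell with PMX-53 in diabetic mice. In diabetic PMX-53 libraries the liver sum averaged 978 CPM, of which Apob made up 935 CPM, while Alb averaged 5.66 CPM. None of the markers in these 6 lists was at 0 in every library. Of further lists, 3 of 4 distal convoluted tubule and 3 of 5 intercalated cell markers rose with diabetes on vehicle, and 0 fell. There 3 of 6 thick ascending limb markers rose and 1 fell, while 3 of 8 endothelial and 1 of 7 macrophage markers fell and 0 rose. The part of cell types in the values of Neat1, Kcnq1ot1, Gas5 and Snhg1 was not tested. Fewer cells of a type and less RNA per cell cannot be told apart in bulk tissue.

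The genes most like each member were taken by the distance between standardised log2 CPM profiles over the 24 libraries, among 11563 genes, as a root mean square in SD units in which the median gene lay at 1.38 to 1.39. Neat1 lay nearest to Klf13 (0.520), a transcription factor gene, Pear1 (0.529), a receptor gene of platelets and endothelium, and Cobll1 (0.551). Kcnq1ot1 lay nearest to Lama4 (0.499), a laminin gene of vessel walls, Fam84b (0.509) and Zbtb20 (0.521), a transcriptional repressor gene. Gas5 lay nearest to Naca (0.544), which encodes a chaperone subunit at the ribosome, Eef1a1 (0.582), a translation elongation factor gene, and Wwtr1 (0.600). Malat1 lay nearest to Sgms1 (0.641), Mbd1 (0.678) and Dusp16 (0.684), Snhg1 to Eif5a2 (0.637), Mios (0.665) and Ddhd2 (0.683), and Snhg12 to Slc7a9 (0.725), Hnrnpul1 (0.728) and Cln6 (0.761). Between members, the closest were Neat1 and Snhg1 (0.919), the neighbours Neat1 and Malat1 lay at 1.25, and the farthest were Neat1 and Kcnq1ot1 (1.67). The nearest genes are the smallest distances among 11563 genes, so the few distances between members are not comparable with them. All profiles share the same libraries, depth and scaling.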

How the data were processed

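Libraries of 24 renal cortex samples came from total RNA freed of ribosomal RNA, with a kit that keeps strand, per the labels' protocols. Reads were handled with bcl2fastq 2.20.0.422 and STAR on GRCm38, per the submitters' processing notes. Not given in the sources used here are the counting tool, its annotation and its strand setting. The deposited table holds raw whole-number counts per gene, with 0 columns left unused. Within groups 0 of 60 pairs of libraries were identical, and all differed beyond counting noise.

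From the counts, edgeR 4.0.16 (R 4.3.3) fitted 1 robust quasi-likelihood model with a coefficient per group over the 24 libraries, after TMM scaling and the default expression filter, which left 15808 genes. P-values were adjusted by Benjamini-Hochberg over these, with a threshold of 0.05. Each SE equals the absolute log2 fold change divided by the square root of F, and a 95% interval is plus or minus 1.96 SE. CPM per kb divides by exonic length in GENCODE M21 (GRCm38), which matched 48058 of 48526 rows; 6 of 7 members had a start in the RefSeq promoter table. Runs of at least 10 bases shared by Neat1 and Malat1 were searched in the GENCODE transcripts, on the given strand. Ratios used counts plus 0.5 and exact permutation tests (scipy 1.17.1). The fit was also run on counts simulated from its own model, which cannot speak to the choice of scaling or to a spread that differs between groups.

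The members, gene lists and tests were chosen with earlier results of these data known. Named genes are the members, at most 2 genes of smallest p per list and comparison, 3 genes of nearest profile (average log2 CPM of at least 1) per member, and Nnt, Ide, Wdfy1 and Acad10; Kcnq1 was added for its overlap after its values were seen. Alternatives were size factors of relative log expression, no scaling, no filter, a filter of at least 1 CPM in 6 libraries, DESeq2 1.42.0, voom with quality weights (limma 3.58.1), a replicate block, leaving out genes encoded in mitochondria and those of ribosomal RNA, fits of only the groups compared, each library left out, and a pseudocount of 5 for ratios. Removal of the 3 most counted gene models as well was added after the data were seen.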

Additional observations from a re-analysis of the deposited data

Results flagged for a closer look

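Of 40 groups of 6 values examined for a library far from the rest, 2 held such a library, where chance gives about 1 in 20. Kcnq1ot1 lay at 192 CPM in non-diabetic vehicle replicate 5, against 167 to 174 CPM in the other 5 libraries of that group, and it still fell with diabetes on vehicle when that library was left out. The log2 ratio of Gas5 to Snhg1 was 2.55 in diabetic PMX-53 replicate 3, against 1.89 to 2.04 in the other 5 libraries. That library held the lowest Snhg1 of its group, at 4.17 CPM.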

How the results depend on the processing

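Of 1014 values of the 6 tested members under alternatives, 989 kept their direction and side of the threshold (or stayed uncalled), 13 lost a call, 12 gained one and 0 reversed while called. Neat1 and Kcnq1ot1 with diabetes on vehicle stayed called throughout, at 0.69 to 1.01 and -0.40 to -0.27 (log2). With PMX-53 in diabetic mice, members called numbered 1 without scaling (Kcnq1ot1, higher), 1 in the fit of only those groups (Gas5) and 1 to 4 with a library left out (1 without diabetic vehicle replicate 2). With diabetes on PMX-53, genes called numbered 871 without scaling and 2560 by voom, against 1587, and members called numbered 1 by voom and 1 by DESeq2 (Malat1 in each). With PMX-53 in non-diabetic mice 1 gene was called with no filter and 5 by DESeq2. In the interaction, DESeq2 called 1 member (Kcnq1ot1), and leaving out a library gave 0 to 2 members and 1022 to 2242 genes, the highest without diabetic vehicle replicate 4. The cause was not tested. No ratio test changed its side.

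Same-numbered libraries did not deviate together: over 36 pairs the correlation of deviations was -0.124 to 0.131 (median 0.0103), and 0 of 24 libraries matched best with their own number. With the replicate block, 6221, 4136, 0, 1483 and 1344 genes were called for diabetes on vehicle, PMX-53 in diabetic mice, PMX-53 in non-diabetic mice, diabetes on PMX-53 and the interaction, and members called numbered 2, 3, 0, 0 and 0. Depth limits Meg3 most, at 1 to 9 counts per library, then Snhg1 and Snhg12.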

Other observations

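The p53-induced noncoding RNA Trp53cor1 was set beside protein-coding p53 targets. Of 12 listed p53 target genes 11 rose and 0 fell with diabetes on vehicle (median log2 fold change 1.05), and 10 rose and 0 fell with diabetes on PMX-53 (median 0.82), comparisons that share no library. Eda2r, a receptor gene of the tumour necrosis factor family, was at 3.14 ± 0.12 on vehicle and 2.52 ± 0.12 on PMX-53, and Zmat3, which encodes an RNA-binding protein, at 1.04 ± 0.07 and 0.99 ± 0.06 (log2; edgeR's quasi-likelihood adjusted p from 3.68e-17 to 6.84e-11). With PMX-53 in diabetic mice 1 rose and 3 fell (median -0.08). The shares of all tested genes called were 40.3% with diabetes on vehicle, 10% with diabetes on PMX-53 and 27.3% with PMX-53 in diabetic mice.

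Of 11 listed short noncoding RNAs transcribed by RNA polymerase III or kept in small particles, 6 were tested. Of these 2 rose and 0 fell with diabetes on vehicle, with Rpph1, the RNA of RNase P, at 0.71 ± 0.10 and Rmrp, the RNA of RNase MRP, at 0.53 ± 0.14 (edgeR adjusted p = 2.91e-06 and 0.00284). Under PMX-53 in diabetic mice 0 rose and 4 fell, with Rpph1 at -0.36 ± 0.10 and Rmrp at -0.46 ± 0.14 (edgeR adjusted p = 0.00759 and 0.0126). With diabetes on PMX-53 0 rose and 0 fell. Of all tested genes, 40.3%, 27.3% and 10% were called in these comparisons, in that order.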
